A study of Sus scrofa with 20 samples.

Results

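The genes described here are 41 cell cycle and mitosis genes in the pig uterus, chosen by name from the textbook machinery that copies chromosomes and divides cells. Each symbol was found once among the 30345 gene rows of the deposited table, and all 41 passed the filter on low counts. They run from the transcription factors that switch the cycle on (E2F1, FOXM1, MYBL2) through DNA replication (the MCM genes, PCNA) to mitosis (CDK1, the B cyclins, aurora and checkpoint kinases, kinesins). Messenger RNA was sequenced from uterine tissue of 20 sows, 1 library per sow, in 4 groups of 5. The question the series asks is how the parts of the boar ejaculate that a sow receives change gene expression in her uterus.

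All sows were wild-type Large White by Landrace crosses from 1 commercial farm, chosen at weaning with a mean parity of 3.53 ± 1.12 (SD), and their ages are not given in the labels. Tissue was taken 6 days after estrus began. Control sows were not inseminated. FR1 sows received only the sperm-rich fraction of the ejaculate, FR2 sows the rich and intermediate fractions, and FR3 sows the rich, intermediate and poor fractions. The semen came from 3 Pietrain boars aged 32 ± 1 months, and a sow was inseminated 2.53 ± 0.74 times on average. The uterine horns were examined for embryos, and the result for each sow is not given in the sources used here. Semen and early pregnancy therefore cannot be told apart in any comparison with control. Whether pregnancy differed between FR1, FR2 and FR3 is not known, so the same limit holds between these groups. The table's columns carry a group and a number from 1 to 5 that no label ties to a sow, so libraries are named here as the columns are (CONTROL_1, FR3_5).

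A dividing cell first loads MCM helicases onto replication origins, then builds nucleotides and copies its DNA, and finally condenses, aligns and separates its chromosomes. E2F factors drive the first of these waves, and FOXM1 and MYBL2 drive the mitotic one, so the transcripts of cycling cells rise and are cleared in step with the phases. MKI67, which coats mitotic chromosomes, and TOP2A, which untangles DNA, are the usual markers of cycling cells in tissue sections. In the uterus, epithelial and stromal cells divide under the control of estrogen and progesterone over the estrous cycle and in early pregnancy. In bulk tissue, fewer cycling cells and less of these transcripts per cell cannot be told apart.

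Library totals, in units of 1e6 counts, ran from 33.0 to 62.9, and no member had a count of 0 in any library. Levels are given as CPM (counts per 1e6 counts after TMM scaling, edgeR's correction for library composition), which compare 1 gene between libraries and not 2 genes with each other. Markers of uterine tissue were present in every group: the summed level of 12 of 12 epithelial markers ran from 1624 to 7659 CPM, that of 7 of 7 stromal markers from 1551 to 14527 and that of 5 of 5 smooth muscle markers from 983 to 27492. CONTROL_1 had the lowest muscle and stromal sums and the highest epithelial sum. CONTROL_2 and CONTROL_3 stood apart in 9 immediate early and heat shock genes, which summed to 1699 and 3365 CPM, against 192 to 707 CPM in the other 18 libraries.

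The summed level of the 41 genes was low and even in FR3, reached higher values in FR1 and FR2, and split widely among controls. The sums were 2429, 238, 417, 1342 and 246 CPM in control, in column order. In FR1 the sums were 462, 1003, 448, 1171 and 614 CPM and in FR2 593, 400.2, 1348, 653 and 796 CPM. In FR3 they were 328, 379, 500.5, 354 and 268 CPM, with a mean of 366 ± 85.6 (SD, n = 5), against 740 ± 329 in FR1 and 758 ± 359 in FR2. FR3 overlapped FR1 and FR2 at its upper end, through FR3_3, and lay within the control range. The median member of a library, as log2(CPM + 0.5), ran from 1.55 to 3.03 in FR3 and from 2.98 to 4.53 in FR1. On that scale FR3 spread about as widely as FR1, so the evenness is that of the sums. CONTROL_1 had the highest sum of the 20 libraries and CONTROL_2 the lowest, so the control mean of 934 ± 952 (SD, n = 5) described no single control library. CONTROL_1 was the highest of all 20 libraries for 34 of the 41 genes. CONTROL_1 and CONTROL_4 were the 2 highest controls for 39 of them, whereas CONTROL_2, CONTROL_3 and CONTROL_5 were all below every FR1 and FR2 library for 29. The share of all genes was not computed for these counts. The controls were split by the levels of these same genes, so the counts only describe the members. In CONTROL_2, 20 members were below 1 CPM.

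**Figure D1:**
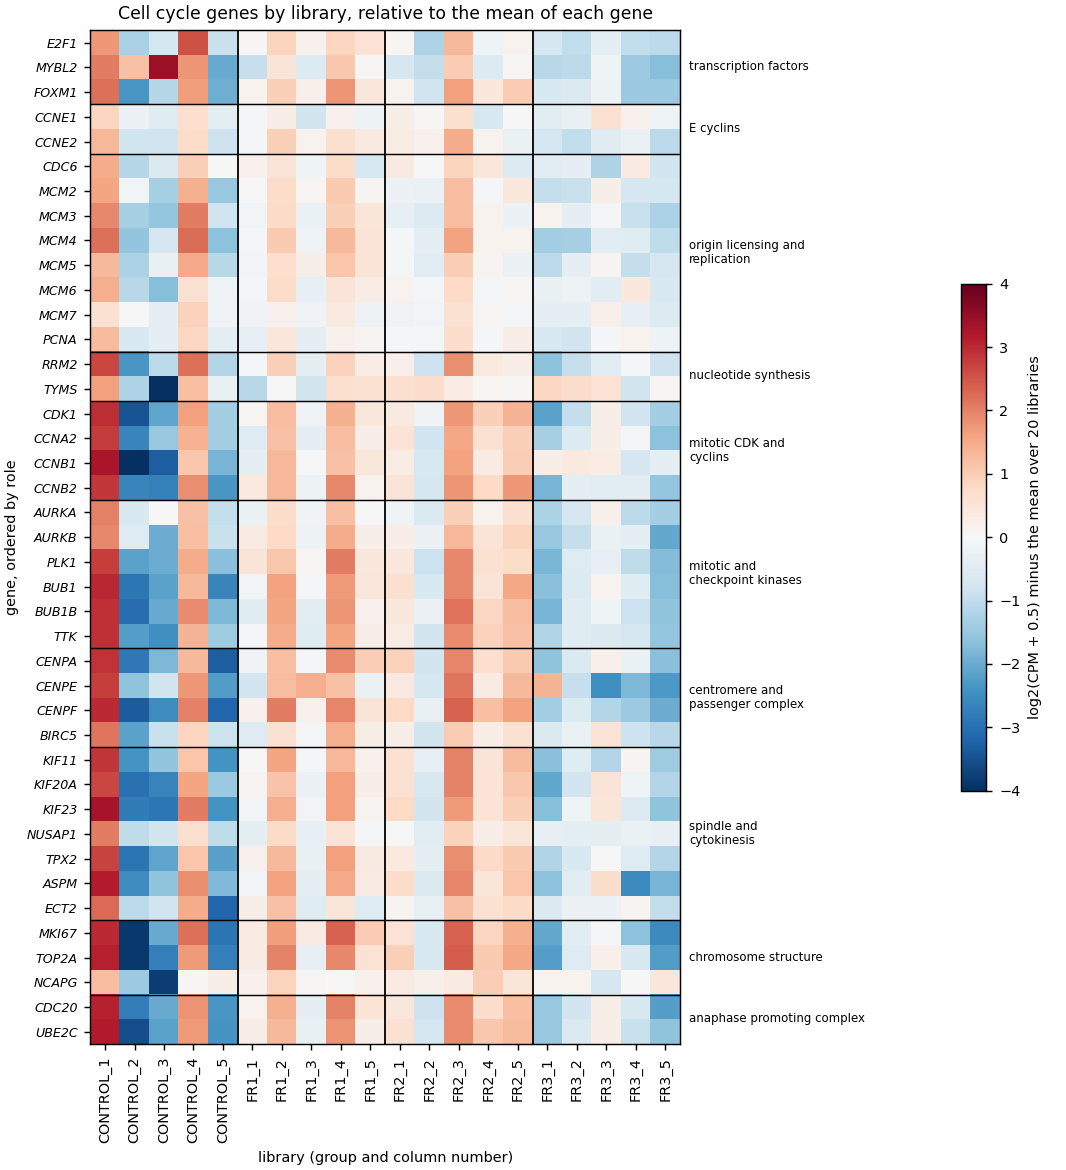
Level of each of the 41 genes (rows, ordered by role) in each of the 20 libraries (columns, in 4 groups of 5), as log2(CPM + 0.5) minus the gene's mean over the libraries; red is above and blue below that mean, and the colour scale ends at 4 in both directions. CONTROL_1 and CONTROL_4 are red and the other controls blue for most genes, FR2_3 and FR1_4 are the reddest inseminated libraries, and FR3 is mostly pale to blue.

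E2F1, which switches on the genes of DNA synthesis, was at 17.5, 1.71, 2.82, 31.5 and 2.41 CPM in control. Its levels were 5.08, 9.64, 5.58, 9.42 and 7.65 CPM in FR1, 5.25, 1.80, 12.8, 4.33 and 5.44 CPM in FR2 and 2.94, 2.23, 3.72, 2.24 and 2.06 CPM in FR3. Every FR3 library was below every FR1 library, while FR2_2 lay below all of FR3.

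FOXM1, the factor that activates mitotic genes, was at 19.3, 0.358, 1.42, 13.0 and 0.602 CPM in control, 4.20, 7.69, 4.44, 13.9 and 5.33 in FR1, 4.19, 1.94, 12.7, 5.20 and 8.21 in FR2 and 2.30, 2.35, 3.24, 1.03 and 1.03 in FR3. FR3 was again below all of FR1, and 3 controls were below every FR1 and FR2 library. MYBL2, which works with FOXM1 at mitotic promoters, followed another order in control, where it was at 90.2, 48.4, 234, 73.6 and 4.96 CPM. It was at 11.1, 31.0, 14.7, 46.2 and 22.3 CPM in FR1, 13.4, 10.7, 43.5, 14.4 and 22.1 CPM in FR2 and 9.73, 10.1, 19.2, 7.60 and 6.27 CPM in FR3. All controls but CONTROL_5 were thus above every inseminated library, among them CONTROL_2 and CONTROL_3, whose other mitotic genes were near the bottom of the series.

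Of the E cyclins, which carry cells from G1 into S phase, CCNE1 spread over the same range in all groups. It was at 7.42, 3.17, 2.61, 6.33 and 2.87 CPM in control, 3.57, 4.68, 2.09, 4.35 and 3.28 in FR1, 4.56, 3.96, 6.30, 2.26 and 3.80 in FR2 and 2.64, 2.98, 6.02, 4.39 and 3.33 in FR3, and all groups overlapped. CCNE2 ran from 0.424 to 1.10 CPM in FR3 and from 1.37 to 3.28 CPM in FR1, without overlap.

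Origin licensing and replication genes varied least, by the median of their role. Among the 15 inseminated libraries, the highest level of a gene was 2.23 to 8.54 times its lowest over these 8 genes, with a median of 4.72. MCM2, a subunit of the replicative helicase, was at 53.3, 16.1, 6.72, 47.9 and 5.79 CPM in control, 17.2, 29.3, 18.4, 36.7 and 18.9 in FR1, 14.7, 14.4, 41.7, 16.5 and 23.4 in FR2 and 8.73, 9.11, 20.8, 10.7 and 10.6 in FR3. Except for FR3_3, the FR3 libraries were below all of FR1 and FR2. PCNA, the clamp that holds DNA polymerase on its template, was at 54.2, 14.4, 17.5, 39.7 and 16.9 CPM in control, 17.8, 31.0, 17.2, 25.5 and 24.3 in FR1, 21.1, 21.7, 36.9, 21.1 and 26.8 in FR2 and 14.7, 12.8, 21.1, 24.7 and 19.2 in FR3, and its groups overlapped. MCM4 was below 10 CPM in all FR3 libraries and above that in all FR1 and FR2 libraries. The other helicase subunits overlapped more: MCM3 ran over 6.79 to 19.0 CPM in FR3 and 14.2 to 33.7 CPM in FR1, MCM5 over 7.18 to 16.6 and 14.0 to 33.6 CPM, MCM6 over 22.7 to 47.4 and 27.5 to 58.5 CPM, and MCM7 over 44.8 to 75.2 and 57.2 to 86.1 CPM. CDC6, which loads the helicase, was at 0.438 to 2.24 CPM in FR3 and 0.902 to 3.14 CPM in FR1. Of the 2 nucleotide synthesis genes, RRM2 (a ribonucleotide reductase subunit) ran from 1.34 to 5.05 CPM in FR3 and from 2.78 to 20.6 in FR1 and FR2. TYMS, which makes thymidylate, ran from 15.0 to 45.8 CPM in FR3 and from 11.6 to 41.6 CPM in FR1 and FR2, and was the only member whose FR3 median was not below both the FR1 and the FR2 median.

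The mitotic genes spread over far wider ranges. CDK1, the kinase that drives entry into mitosis, was at 53.1, 0.128, 1.10, 20.8 and 2.20 CPM in control, 6.74, 15.8, 5.73, 17.9 and 8.82 in FR1, 8.29, 5.71, 22.2, 12.8 and 17.2 in FR2 and 1.07, 3.03, 7.67, 3.52 and 2.18 in FR3. Only FR3_3 reached the FR1 and FR2 ranges. CCNB1, its cyclin partner, was at 171, 0.486, 1.33, 37.5 and 4.45 CPM in control, 13.2, 44.4, 17.2, 39.9 and 24.3 in FR1, 21.7, 11.0, 55.0, 22.2 and 35.0 in FR2 and 21.3, 23.1, 21.5, 10.8 and 13.4 in FR3. CCNB1 in FR3 overlapped both other inseminated groups, whereas CCNB2, a second B cyclin, ran from 0.615 to 2.67 CPM in FR3 and from 2.98 to 14.9 CPM in FR1. CCNA2, the cyclin of S phase and early mitosis, was at 1.15 to 5.65 CPM in FR3, 3.09 to 11.8 in FR1 and 2.54 to 14.6 in FR2, overlapping both.

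AURKA, a kinase of the spindle poles, was at 30.1, 4.47, 7.04, 16.4 and 3.38 CPM in control, 5.80, 11.8, 6.34, 16.9 and 7.18 in FR1, 6.30, 4.61, 14.2, 7.80 and 11.6 in FR2 and 2.62, 4.15, 8.13, 3.19 and 2.45 in FR3. FR3_3 alone reached into the FR1 range. AURKB, the kinase of the chromosomal passenger complex, ran from 1.70 to 7.01 CPM in FR3 and from 7.22 to 25.0 CPM in FR1 and FR2, so FR3 overlapped neither group. PLK1, which acts from mitotic entry to cytokinesis, ran from 1.64 to 5.52 CPM in FR3, from 7.38 to 30.6 in FR1 and from 3.69 to 28.2 in FR2. The spindle checkpoint kinases BUB1, BUB1B and TTK each overlapped between FR3 and FR1 at the top of the FR3 range. BUB1 was at 0.909 to 4.53 CPM in FR3 and 3.74 to 14.4 in FR1, BUB1B at 0.752 to 3.57 and 2.78 to 15.1, and TTK at 1.00 to 2.67 and 2.66 to 12.7. Over the 6 mitotic and checkpoint kinases the highest inseminated library was 6.90 to 26.8 times the lowest, with a median of 17.3.

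CENPF, a kinetochore protein, ran from 1.79 to 5.70 CPM in FR3, from 9.50 to 36.9 in FR1 and from 6.86 to 45.9 in FR2, and overlapped neither. CENPE, the kinetochore motor that moves chromosomes to the spindle equator, departed from the other members in 2 libraries. It was at 16.9 CPM in FR1_3 and 15.9 CPM in FR3_1, while the other FR3 libraries were between 0.657 and 2.85 CPM. CENPA, the histone variant that marks centromeres, was at 1.09 to 5.37 CPM in FR3 and 4.10 to 18.5 in FR1, and BIRC5 (survivin, of the passenger complex) at 6.30 to 21.1 and 9.83 to 39.8. Both overlapped at the top of the FR3 range. The 7 spindle and cytokinesis genes differed most from one another in spread, with the highest inseminated library 2.60 to 60.6 times the lowest. NUSAP1, which bundles spindle microtubules, stayed between 11.5 and 12.8 CPM in FR3, whereas ASPM, a spindle pole protein, ran from 0.290 to 7.08 CPM there. In the RefSeq annotation NUSAP1 overlaps OIP5 and NDUFAF1, with mean levels of 103.5 and 37.5 CPM, so its reads may be split by the counting. Among the mitotic kinesins, KIF11 was at 1.75 to 7.18 CPM in FR3 and 6.38 to 21.0 in FR1. For KIF20A these ranges were 1.60 to 12.2 and 7.14 to 27.1 CPM, and for KIF23 they were 1.25 to 7.45 and 4.77 to 17.3 CPM. TPX2, a spindle assembly factor, was at 6.15 to 15.2 CPM in FR3 and 11.9 to 47.0 in FR1, and ECT2, which starts cytokinesis, at 1.97 to 4.82 and 2.95 to 10.6. All 5 overlapped.

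MKI67 was at 163, 0.920, 4.54, 93.2 and 2.20 CPM in control, 25.4, 64.8, 25.4, 104 and 41.1 in FR1, 30.0, 13.0, 105, 36.8 and 55.0 in FR2 and 4.51, 14.7, 18.8, 6.10 and 3.00 in FR3. All 5 FR3 libraries were below all 5 FR1 libraries, and FR2_2 alone of FR2 reached the FR3 range. TOP2A was at 179, 0.920, 2.59, 66.3 and 2.62 CPM in control, 25.2, 81.4, 16.0, 78.2 and 30.1 in FR1, 39.6, 12.9, 109.9, 41.9 and 59.6 in FR2 and 4.01, 14.0, 23.1, 13.0 and 3.88 in FR3. Its FR3 range overlapped both groups through FR1_3, FR2_2 and FR3_3. NCAPG, a condensin subunit, was at 22.6, 22.9, 12.8, 20.4 and 28.7 CPM in FR3 and between 20.7 and 41.7 CPM in FR1 and FR2. In the RefSeq annotation of assembly Sscrofa11.1, NCAPG overlaps LCORL, whose mean level was 36.9 CPM, and without a known strand reads of the 2 cannot be told apart. CDC20 and UBE2C, which direct cyclins to destruction through the anaphase promoting complex, ran from 2.42 to 15.4 CPM and from 2.24 to 9.62 CPM in FR3. In FR1 they ran from 10.1 to 53.0 CPM and from 6.45 to 29.2 CPM.

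**Figure D2:**
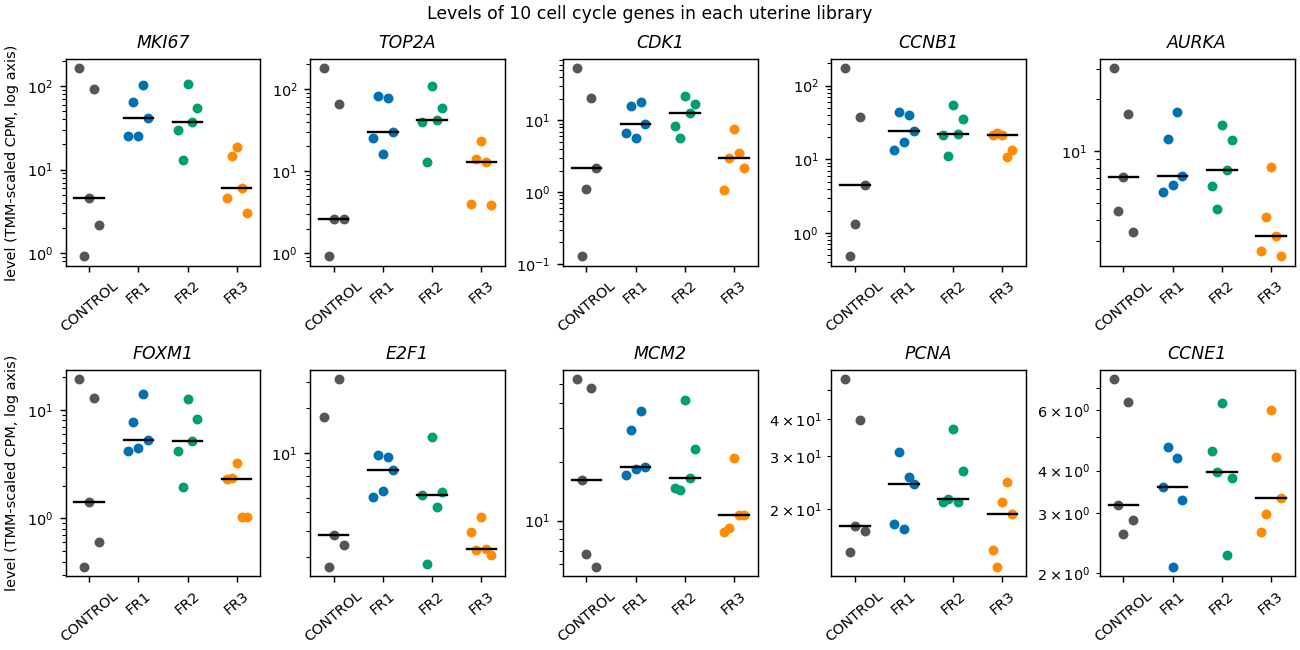
Levels of 10 genes (TMM-scaled CPM, log axes that differ between panels) in control, FR1, FR2 and FR3; each point is 1 library, in column order from left to right, and each bar is the median of 5. MKI67, CDK1, AURKA, FOXM1 and E2F1 sit lower in FR3 than in FR1, CCNE1 and PCNA overlap in all groups, and the controls span the widest range in each of the 10 panels.

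The comparison of FR3 with FR2 asks what the poor fraction added among inseminated sows, and that with FR1 what the intermediate and poor fractions added together. No member passed in either: edgeR's quasi-likelihood test with Benjamini-Hochberg adjustment over 17745 genes called 0 of 41 in FR3 against FR1 and 0 of 41 in FR3 against FR2. The background was also near nothing, at 0.0% and 0.00564% of all genes tested. The fitted log2 fold changes nonetheless leaned one way. They were below 0 for 39 of the 41 members against FR1, compared with 49.3% of all genes, and for 40 against FR2, compared with 49.5%. The median member was at -1.40 against FR1 and -1.46 against FR2 on the log2 scale, while the median of all genes was 0.01 in both. The 2 comparisons share the 5 FR3 libraries. These genes also move together from library to library, so the count is not one of 41 separate observations.

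At an unadjusted p below 0.05, 10 members were lower in FR3 than in FR1 (24.4%, against 4.39% of all genes) and 9 lower than in FR2 (22.0%, against 4.15%). DESeq2 and limma-voom called 0 members in both comparisons, and DESeq2 called 12 and 21 of all genes. Both counts rest on single libraries: 2 members remained at that level against FR1 without FR1_4, and 2 against FR2 without FR2_3, the 2 inseminated libraries with the highest sums. Against FR1 the count was 3 without FR3_5, 5 without FR1_2, 6 without FR3_1 or FR3_4 and 16 without CONTROL_2. Against FR2 it was 3 without FR3_5, 4 without FR3_1, 5 without FR3_2, FR3_4 or FR2_5, 14 without CONTROL_3 or CONTROL_5, 15 without FR2_2 and 17 without CONTROL_1 or CONTROL_2. The share of all genes at that level was not computed in these fits, so the shifts are not read as particular to the members. The counts of members below 0 changed little and ran from 39 to 40 and from 40 to 41.

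The 3 members with the smallest p against FR1 were CCNE2, AURKB and CENPF, and against FR2 they were the same 3. CCNE2 differed by -1.58 ± 0.58 (log2 fold change ± SE) from FR1 and by -1.64 ± 0.58 from FR2, with edgeR adjusted p of 0.586 and 0.666. AURKB differed by -1.64 ± 0.61 from both groups (edgeR adjusted p = 0.586 and 0.666). For CENPF the differences were -2.63 ± 1.05 and -2.78 ± 1.05 (edgeR adjusted p = 0.593 and 0.666). None passed the threshold of 0.05. In RefSeq, CCNE2 overlaps INTS8, AURKA overlaps CSTF1, PLK1 overlaps ERN2 and MCM5 overlaps MARK3, so reads of these pairs may be split by the counting.

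By role, the medians ranged widely. The median over MKI67, TOP2A and NCAPG was -1.99 against FR1 and -2.19 against FR2, with NCAPG itself at -0.25 and -0.46. The median over the 6 mitotic and checkpoint kinases was -1.83 against FR1 and -1.92 against FR2, and over CDC20 and UBE2C -1.73 and -1.80. Centromere and passenger genes had medians of -1.53 and -1.64, the mitotic CDK and cyclin genes -1.40 and -1.64, spindle and cytokinesis genes -1.40 and -1.50, and the 3 transcription factors -1.50 and -1.17. The E cyclins had medians of -0.74 and -0.87. The 8 licensing and replication genes had medians of -0.83 and -0.67, and both nucleotide synthesis genes together -0.44 and -0.73. CCNE1 and TYMS were the 2 members above 0 against FR1, at 0.11 ± 0.36 and 0.35 ± 0.65 (SE), and TYMS the 1 above 0 against FR2, at 0.01 ± 0.64. CCNE1 changed sign against FR1 without FR1_3 or FR3_3 and against FR2 without FR2_3, so it has no settled direction. The contrast between roles was not tested.

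FR3 lay below FR1 without overlap in 9 members (22.0%, against 1.43% of all genes): E2F1, FOXM1, CCNE2, MCM4, CCNB2, AURKB, PLK1, CENPF and MKI67. It lay below FR2 without overlap in MCM4, AURKB and CENPF (7.32%, against 1.9% of all genes). Each count depended on single libraries. Without FR3_3, the highest FR3 library, 24 members did not overlap with FR1, and without FR2_2, the lowest FR2 library, 24 did not overlap with FR2. Against FR2 the count was 10 without FR3_3 and 6 without FR3_4. The share of all genes was not computed without these libraries. FR3_3 and FR2_2 are extremes of these same genes, and fewer libraries separate more easily. The larger counts are therefore not read as a result about the members.

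MKI67 differed from FR1 by -2.47 ± 1.03 and from FR2 by -2.34 ± 1.02 (log2 fold change ± SE) in the fit, which did not pass (edgeR adjusted p = 0.593 and 0.667). An exact 2-sided permutation test of this 1 gene on log2(CPM + 0.5), added after the data were seen, compared the group means over all 252 splits of 10 libraries. FR3 was at 3.01 ± 1.05 and FR1 at 5.50 ± 0.87 (log2, SD, n = 5), a difference of -2.49 with an exact p of 0.00794, the smallest that 5 against 5 allows. FR2 was at 5.28 ± 1.09, and FR3 differed from it by -2.27 (exact permutation p = 0.0238). Adjusted over the 3 pairs of inseminated groups, the exact permutation p-values were 0.0238 and 0.0357. This test takes 1 gene chosen as the marker of cycling cells, and it does not carry the adjustment over all genes. Its p against FR1 restates the lack of overlap given above and is not further support.

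**Figure D3:**
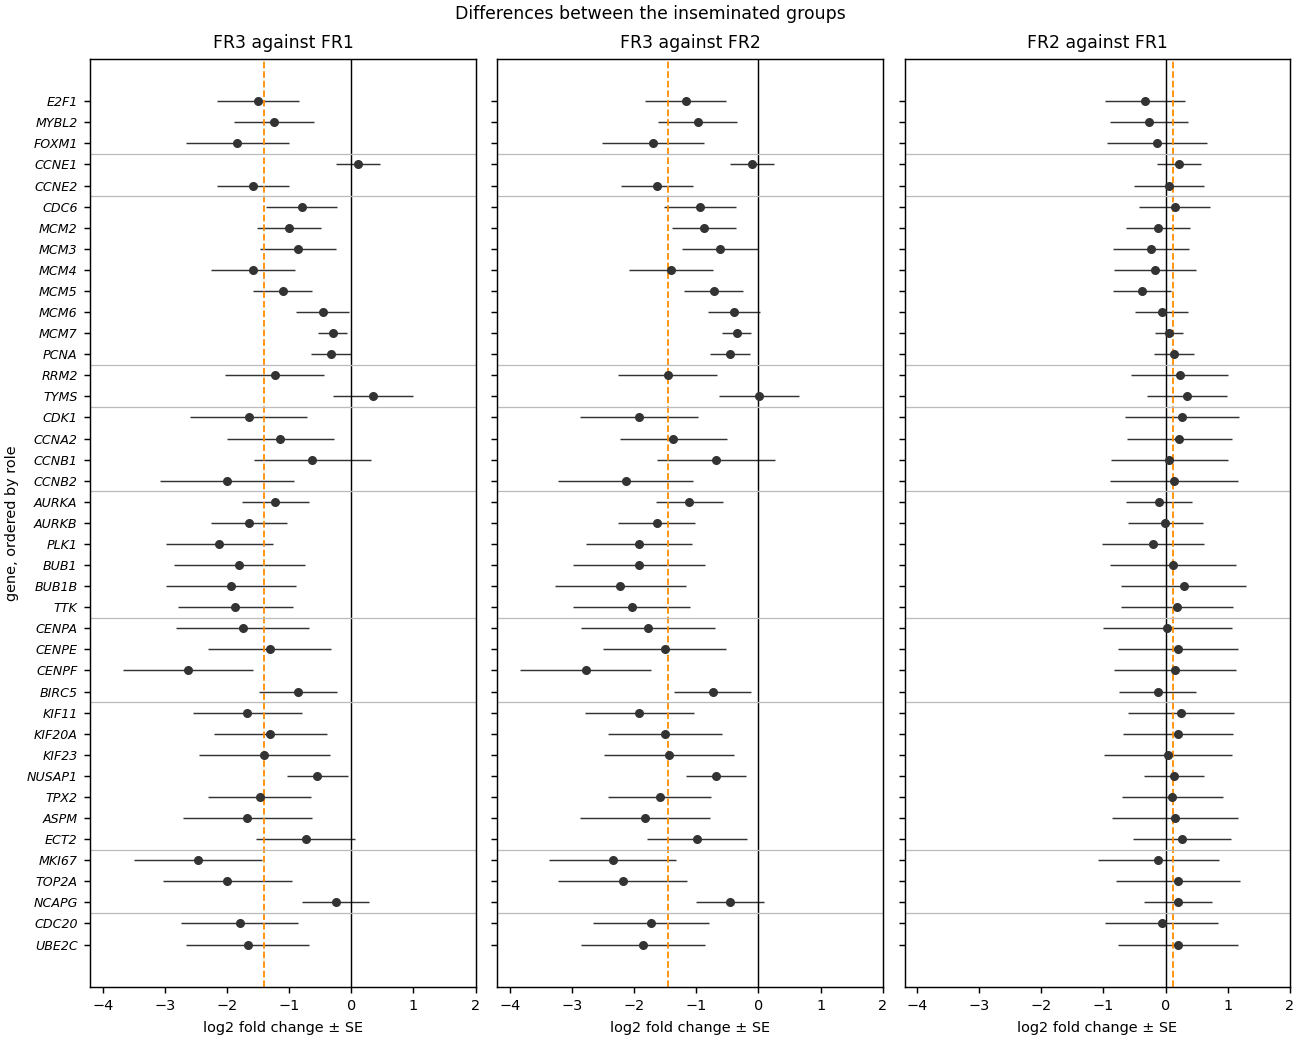
Fitted log2 fold change of each of the 41 genes (points) with its standard error (bars) for FR3 against FR1, FR3 against FR2 and FR2 against FR1; grey lines separate roles, and the dashed line is the median over the 41 genes. The medians are -1.40, -1.46 and 0.12, and most bars in the first 2 panels lie wholly below 0 although no gene passed the adjusted test.

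No member was called between FR2 and FR1. EdgeR called 0 of 41 (0.0% of all genes), 0 had an unadjusted p below 0.05 (0.733% of all genes), and DESeq2 and limma-voom called none. The median difference of FR2 from FR1 was 0.12, with 27 members above 0 and 14 below (48.3% of all genes were below). MKI67 differed by -0.22 on the log2 scale (exact permutation p = 0.762). The 3 smallest p-values belonged to MCM5 at -0.38 ± 0.47, CCNE1 at 0.22 ± 0.36 and TYMS at 0.34 ± 0.65 (log2 fold change ± SE, edgeR adjusted p = 1.00 for each). The direction of the median was not settled. It was -0.26 without FR2_3, -0.03 without FR1_1 and -0.05 without FR1_3, and it reached 0.31 without FR1_4. The count below 0 was 37, 23, 25 and 3 in these 4 fits.

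The comparisons with control ask what insemination changed, and here the answer for most members depended on the scale, because CONTROL_1 and CONTROL_4 held most of the control counts. All 3 groups were compared with the same 5 control libraries. By group means, 35 members were lower in FR1 than in control, 34 lower in FR2 and 40 lower in FR3. By group medians, 39 were higher in FR1, 39 higher in FR2 and 29 higher in FR3. The fitted fold change follows the means, and its median over members was -0.32 for FR1, -0.18 for FR2, -1.69 for FR3 and -0.73 for the 3 groups together. With limma-voom, which works on log values per library, the medians were 1.05 for FR1, 1.09 for FR2, -0.36 for FR3 and 0.56 for the 3 groups together. In edgeR, leaving out CONTROL_1 alone moved them to 0.77, 0.88, -0.67 and 0.33, so no direction against control is given for the members as a whole. The fitted change was below 0 for 35, 34, 40 and 40 members in the FR1, FR2, FR3 and joint comparisons, where 53.1%, 52.9%, 54.3% and 54.0% of all genes were below 0.

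MYBL2 was the only member that passed. It was 2.35 ± 0.47 lower on the log2 scale in all inseminated sows together than in control (edgeR adjusted p = 0.00307), in a comparison where 11.1% of all genes were called. Against control, FR3 was lower by 3.09 ± 0.68 (edgeR adjusted p = 0.0203, against 4.27% of all genes called). The test for any difference among the 4 groups also called it (edgeR adjusted p = 0.0244, against 4.07% of all genes). FR1 was 1.85 ± 0.65 lower and FR2 2.12 ± 0.65 lower, which did not pass (edgeR adjusted p = 0.123 and 0.0618, where 2.6% and 5.55% of all genes were called). No other member had an unadjusted p below 0.05 there (11.9% and 13.5% of all genes were lower at that level), and the next smallest p belonged to MCM7 and RRM2 in FR1 and to E2F1 and MCM3 in FR2, with edgeR adjusted p from 0.440 to 0.615. DESeq2 called MYBL2 in all of these. The 2 limma-voom fits and the exact rank-sum test did not, with adjusted p up to 0.271 over all inseminated sows and 0.288 in FR3, and CONTROL_5 lay below every other library.

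The FR3 call for MYBL2 was lost without CONTROL_3, FR3_1 or FR3_2, and without CONTROL_3 its fold change was -2.38 (edgeR adjusted p = 0.0591). The call for any difference among the groups was lost without the same 3 libraries. The call over all inseminated sows stayed past the threshold without any single library, with adjusted p from 0.000155 to 0.0489, the latter without CONTROL_3. CONTROL_2 and CONTROL_3, where MYBL2 was high and MKI67 low, were also the 2 libraries with high immediate early and heat shock genes, and 6 of those 9 genes were called lower over all inseminated sows. Of the tissue markers, 6 of 12 epithelial ones were called lower and 2 of 7 stromal ones higher in the same comparison. CONTROL_3, with the highest MYBL2, also had the highest sum of 4 neutrophil markers, 80.6 CPM against at most 8.00 CPM elsewhere. CONTROL_2 and CONTROL_3 had the highest smooth muscle sums, 27492 and 24540 CPM, against at most 22520.5 CPM elsewhere. Their sums of 4 germinal centre B cell markers were also the highest, 56.1 and 62.6 CPM, against at most 44.8 CPM elsewhere. The part of these in the MYBL2 result was not tested.

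In FR3 against control, 22 members were lower at an unadjusted p below 0.05 (53.7%, against 12.7% of all genes), and edgeR's adjustment left only MYBL2. DESeq2 called 6 (14.6%, against 10.6% of all genes it tested): AURKA, CENPF, E2F1, MCM4, MYBL2 and RRM2. The unadjusted count was 3 without CONTROL_1, 6 without CONTROL_4, 8 without FR3_5, 10 without FR3_1, 11 without FR3_2, 14 without FR3_4 and 34 without CONTROL_2. For 29 members the FR3 median was nonetheless above the control median. Over all inseminated sows, E2F1 and MYBL2 were lower at an unadjusted p below 0.05 (16.6% of all genes were). That count was 6 without CONTROL_2, CONTROL_3, CONTROL_5 or FR2_3, 4 without FR1_4 and 1 without CONTROL_1 or CONTROL_4. In neither comparison was the share of all genes at that level computed without these libraries. Genes called by edgeR in FR3 against control also moved, from 58 to 1869, as 1 library at a time was left out. The shifts are therefore not read as particular to the members.

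Members rose and fell together across libraries. Of the 40 other members, 38 had a Spearman correlation with MKI67 over the 20 libraries that passed at a Benjamini-Hochberg adjusted permutation p of 0.05, and 39 a Pearson correlation that did so. Adjusted instead over all 17744 other genes tested, a comparison added after the data were seen, 36 members passed with a positive Spearman correlation (permutation test), against 2.54% of all genes, and 36 with a positive Pearson correlation, against 2.85%. The 4 that did not pass were CCNE1, MYBL2, NCAPG and TYMS by either measure. The median Spearman rho was 0.943 and the median Pearson r 0.914, and 25 members had a rho above 0.9, as did 0.62% of all genes. Without CONTROL_2 and CONTROL_5, the libraries farthest from the MKI67 median, the median r was 0.915. BUB1 and TOP2A had a rho of 0.976 each (permutation p = 1e-05, the smallest that 100000 permutations can give, adjusted 1.38e-05). All genes of a library share its depth and its tissue make-up, and the groups differ. The part of these in the correlations was not tested.

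Among the 15 inseminated libraries alone, 37 of 40 members passed by Spearman and 36 by Pearson, with a median rho of 0.923 and a median r of 0.904. With the adjustment over all genes these counts were 31, against 1.62% of all genes, and 33, against 1.79%. A rho above 0.9 was found for 24 members and for 0.592% of all genes. Leaving out FR3_5 and FR3_1 gave a median r of 0.894. MYBL2 had a rho of 0.561 over 20 libraries (permutation p = 0.0113, adjusted 0.0119) and 0.939 over the 15 inseminated ones (permutation p = 1e-05, adjusted 1.67e-05). Its departure thus lay in the controls. Adjusted over the 40 relations, TYMS, NCAPG and CCNE1 did not pass among inseminated libraries by Spearman, with rho of -0.118, 0.336 and 0.339 (permutation p = 0.678, 0.221 and 0.216, adjusted 0.678, 0.227 and 0.227). Over all 20 libraries, TYMS and NCAPG were the 2 that did not pass by Spearman with that adjustment, with rho of 0.438 and 0.423 (permutation p = 0.0545 and 0.0634, adjusted 0.0559 and 0.0634). Correlations within a single group of 5 were not computed.

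**Figure D4:**
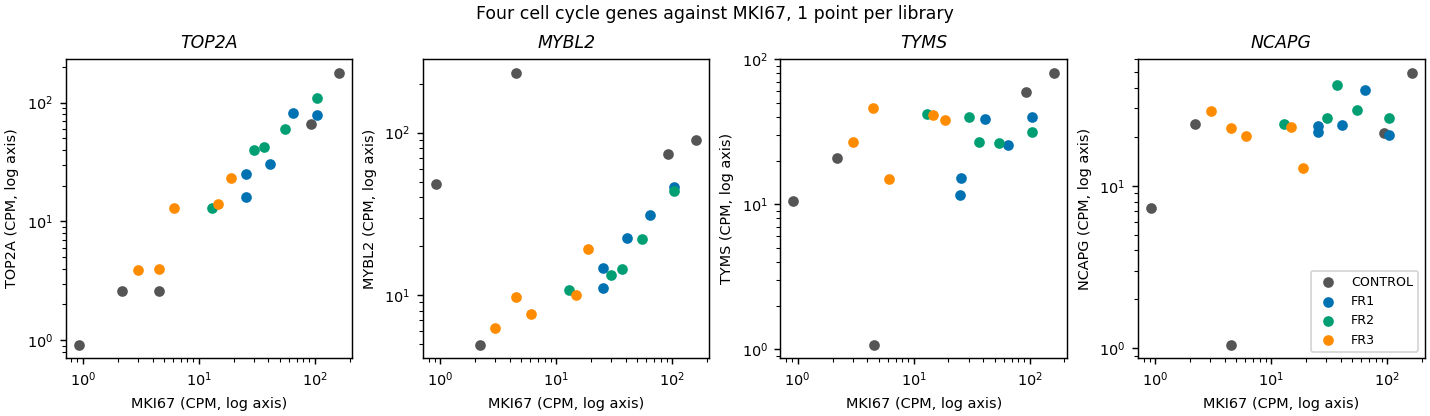
Level of TOP2A, MYBL2, TYMS and NCAPG (vertical, CPM) against MKI67 (horizontal, CPM), both on log axes, with 1 point per library coloured by group. TOP2A follows MKI67 over the whole range, MYBL2 does so except in CONTROL_2 (48.4 CPM) and CONTROL_3 (234 CPM), and TYMS and NCAPG vary with little relation to MKI67 among the inseminated libraries.

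Other cell cycle genes were read from lists that hold none of the 41. All 38 other mitosis genes, among them kinetochore, condensin and cytokinesis genes, had a fitted change below 0 in FR3 against FR1 and against FR2, with medians of -1.59 and -1.73, and none passed. PRC1, which bundles the central spindle, was the only one called. It fell by 1.96 ± 0.49 in FR3 against control and by 1.40 ± 0.36 over all inseminated sows (log2, SE, edgeR adjusted p = 0.033 and 0.0178). The FR3 call was lost without CONTROL_1, CONTROL_3 or any 1 FR3 library, and the other without CONTROL_1, where the change was -0.86. Limma-voom, with or without a spread per group, called PRC1 in neither comparison (adjusted p up to 0.349 and 0.336), nor did the fit of FR3 and control alone or the exact rank-sum test. Of 29 other replication genes, 22 were below 0 against FR1 and 24 against FR2, with medians of -0.54 and -0.48.

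POLD1, CDC45, GMNN and GINS4, all on the replication list, were called against control. POLD1, the catalytic subunit of DNA polymerase delta, was 1.17 ± 0.25 lower in FR3 (edgeR adjusted p = 0.0194). It lay between 13.1 and 14.3 CPM in FR3, below all of FR1 (18.4 to 45.0), FR2 (17.8 to 37.7) and control (23.1 to 46.3). Its call was lost without FR3_1 or FR3_2, with adjusted p up to 0.0654, and also by limma-voom with a spread per group (0.242) and in the fit of FR3 and control alone (0.211). CDC45, which activates the replicative helicase, was 1.19 ± 0.33 lower in FR3 than in control (edgeR adjusted p = 0.0434) and lay between 8.58 and 9.20 CPM there. GMNN, an inhibitor of origin licensing, was 1.38 ± 0.36 lower in FR1 than in control, and GINS4, part of the same helicase, 1.08 ± 0.31 lower in FR2 (edgeR adjusted p = 0.0448 and 0.045). Both were also called over all inseminated sows, at -1.13 ± 0.27 and -0.91 ± 0.24 (edgeR adjusted p = 0.0113 and 0.0171). These calls lie close to the threshold. Of the 20 libraries left out in turn, 15 ended the CDC45 call, 15 the GMNN call in FR1 and 14 the GINS4 call in FR2. Over all inseminated sows, the GMNN call was lost without CONTROL_4, where the change was -0.49, and the GINS4 call without CONTROL_1, where it was -0.59. Limma-voom with a spread per group and the fit of only the 2 groups compared also ended the CDC45 call and those in FR1 and FR2, with limma-voom adjusted p of 0.350, 0.131 and 0.107. Without a filter on low counts, CDC45 and GINS4 were not called in these comparisons either (edgeR adjusted p = 0.0520 and 0.0547). Counting libraries left out, 19 alternatives ended the CDC45 call, 18 the GMNN call in FR1 and 18 the GINS4 call in FR2, not all of them named here. In the joint comparison, limma-voom with a spread per group and the exact rank-sum test called neither GMNN (adjusted p = 0.117 and 0.118) nor GINS4 (adjusted p = 0.159 and 0.118).

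Medians of the genes that govern G1 and of the brakes on the cycle were near 0. The 12 G1 cyclins, kinases and phosphatases had medians of -0.11 and -0.19 in FR3 against FR1 and FR2, the 14 tested CDK inhibitors and pocket proteins 0.02 and -0.13, and the 14 DREAM and E2F genes -0.08 and -0.02. No gene of these lists passed in either comparison. Against control, CCND2, a D cyclin that acts in G1, rose by 1.53 ± 0.37 in FR3 and by 1.17 ± 0.32 over all inseminated sows (log2, SE, edgeR adjusted p = 0.0282 and 0.0224). PKMYT1, which holds CDK1 inactive, fell by 3.65 ± 0.88 in FR3 and by 2.04 ± 0.59 over all inseminated sows (edgeR adjusted p = 0.0282 and 0.0312). It was between 0.274 and 0.570 CPM in FR3 and between 0.208 and 16.2 CPM in control. The FR3 calls were lost for CCND2 without CONTROL_3, FR3_1, FR3_2 or FR3_3, and for PKMYT1 without CONTROL_4, FR3_1, FR3_2, FR3_3 or FR3_5. Over all inseminated sows they were lost for CCND2 without CONTROL_2 or CONTROL_3 and for PKMYT1 without CONTROL_1 or CONTROL_4, the last with a change of -1.16. Neither gene was called in FR3 by limma-voom with a spread per group (adjusted p = 0.165 for CCND2 and 0.454 for PKMYT1), nor did the fit of FR3 and control alone. In the joint comparison, that limma-voom fit and the exact rank-sum test gave adjusted p of 0.113 and 0.102 for CCND2 and of 0.699 and 0.756 for PKMYT1, whose change by rank-sum means was -0.80. Counting libraries left out, 8 alternatives ended the PKMYT1 call in FR3 and 5 the joint one, not all of them named here.

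Over all inseminated sows, CDC25B, the phosphatase that activates CDK1, fell by 1.15 ± 0.30 and BTG2, an antiproliferative gene, by 1.70 ± 0.46 (edgeR adjusted p = 0.0173 and 0.0227). TFDP2, a partner of E2F factors, rose by 0.55 ± 0.17 (edgeR adjusted p = 0.0479). BTG2 was no longer called without CONTROL_3, where its log2 change was -0.50, CDC25B not without CONTROL_1 or CONTROL_3, and TFDP2 not without any of 16 libraries. Limma-voom with a spread per group and the exact rank-sum test called none of the 3, with adjusted p of 0.506 and 0.532 for BTG2, 0.212 and 0.357 for CDC25B, and 0.219 and 0.138 for TFDP2. The BTG2 change was -0.84 and -0.85 there. Counting libraries left out, 5 alternatives ended the CDC25B call and 4 the BTG2 call, not all of them named here. TFDP2 also missed the threshold with relative log expression factors and with no filter on low counts (edgeR adjusted p = 0.0521 and 0.0724).

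**Figure D5:**
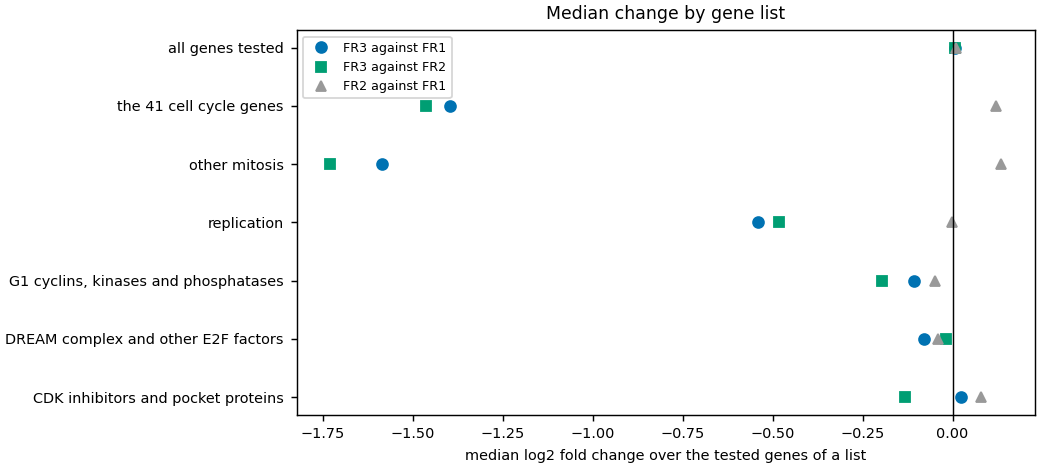
Median log2 fold change over the tested genes of each list (rows) for FR3 against FR1 (circles), FR3 against FR2 (squares) and FR2 against FR1 (triangles). The 41 cell cycle genes and the 38 other mitosis genes lie between -1.40 and -1.73 for both FR3 comparisons, replication near -0.5, and the remaining lists and all 17745 genes near 0.

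Marker sums of the main uterine cell types overlapped between all 3 inseminated groups. The epithelial sum ran from 1624 to 6359 CPM in FR3, from 1701 to 4934 in FR1 and from 2024 to 3601 in FR2. The smooth muscle sum ran from 4009 to 20798 CPM in FR3, from 3161 to 22520.5 in FR1 and from 3516 to 14386 in FR2, and the stromal sum from 4051 to 14527, from 5305 to 11912 and from 8602 to 11747. The 7 T and NK cell markers summed to 12.0 to 60.8 CPM over these groups. The 5 B and plasma cell markers summed to 16.8 to 118 CPM, and 1 of them, JCHAIN, was called higher over all inseminated sows against control. MS4A1, another of them and a marker of mature B cells, was at or below 0.41 CPM in every inseminated library. The summed red blood cell markers did not overlap between FR1 (20.8 to 69.5 CPM) and FR3 (70.5 to 1882 CPM), while FR2 ran from 9.99 to 172.5 CPM. Some marker lists leaned one way in FR3 and others did not, and no marker was called by edgeR against FR1 or FR2. Of all genes, 49.3% were below 0 against FR1 and 49.5% against FR2. Of 12 epithelial markers, 11 were above 0 against FR1 and 10 against FR2, with median log2 changes of 0.50 and 0.67. All 5 smooth muscle markers were below 0 against FR1 (median -0.52) and 4 against FR2 (median -0.02). Stromal markers were below 0 in 4 of 7 and 6 of 7 (medians -0.18 and -0.34), and T and NK cell markers above 0 in 2 of 7 and 7 of 7 (medians -0.07 and 0.42). Both red blood cell markers were above 0, with medians of 2.87 and 1.87. The part of tissue make-up in the FR3 values was not tested.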

How the data were processed

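Gene expression was measured by RNA-seq in 20 uterine libraries. The deposited values are estimated counts per gene, made by the authors with tools that include STAR 2.7.9a and Salmon 1.10.1, per the submitters' processing notes. The genome build, annotation release and strand setting are not given in the sources used here, so reads of overlapping genes cannot be assigned by strand, and 9 of the 41 genes overlap another protein-coding gene in RefSeq (assembly Sscrofa11.1). The 24 rows that name no gene (0.0036 to 0.0133% of counts) were left out. Values, 87.2% of them whole, were rounded. Depth per library was 33.0 to 62.9 (in 1e6 counts).

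The 41 members and all gene lists were chosen with earlier results of these data known. All 20 libraries entered 1 edgeR 4.0.16 quasi-likelihood fit (R 4.3.3) with TMM scaling, filterByExpr by group, 17745 genes tested, 16 residual degrees of freedom, Benjamini-Hochberg adjustment and a threshold of 0.05, after checking the scripts on simulated counts. Exact and permutation tests (100000 permutations, scipy 1.17.1) used CPM, with a pseudocount of 0.5 for log2 values. P-values measure the spread between sows. Every member may be named. Values per library were given for a panel of 10 genes and for MYBL2, the member that edgeR called. Statistics were given for the panel, the genes called and, where no member was called, the 3 members with the smallest p. Of each other list, up to 4 called genes were named. Other members given by range were chosen after their values were seen.

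Alternatives were DESeq2 1.42.0, its size factors within edgeR (relative log expression), limma-voom (limma 3.58.1) with and without a spread per group, no filter and a filter of 1 CPM in 5 libraries, only the libraries of the groups compared, each library left out, and an exact rank-sum test of 5 against 15 libraries, whose smallest possible p is 0.000129.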

Additional observations from a re-analysis of the deposited data

Results flagged for a closer look

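In 164 groups of 5 values (41 genes in 4 groups), 5 values, in 3 libraries, stood apart from the other 4 of their group by a gap above Dixon's 95% critical value of 0.71 of the group's range. For normally distributed values chance gives about 1 in 20, and 5 of 164 is below that share. MCM4, MCM6 and MCM7, subunits of 1 helicase, did so in the same library, FR2_3, at 41.4, 61.0 and 99.9 CPM. Elsewhere in FR2 they ran from 10.1 to 14.9 CPM, from 33.5 to 38.9 CPM and from 58.8 to 67.1 CPM. FR2_3 also had the highest summed level of the inseminated libraries. These genes move together from library to library, so the MCM values there are not separate observations. MCM2 was at 20.8 CPM in FR3_3, against 8.73 to 10.7 CPM in the rest of FR3. NCAPG was at 39.1 CPM in FR1_2, against 20.7 to 23.6 CPM in the rest of FR1.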

How the results depend on the processing

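No paired analysis was possible because sows are numbered across the series and columns within a group, so no number is known to be shared. The FR3 values below FR1 and FR2 kept their direction in all alternatives for MKI67, TOP2A, CDK1, CCNB1, PCNA, MCM2, FOXM1, E2F1, AURKA and MYBL2, and 0 members were called there by edgeR, DESeq2 or either limma-voom fit. DESeq2 called 12 genes in FR3 against FR1 and 21 in FR3 against FR2.

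Calls against control depended on the tool. Over all inseminated sows, limma-voom called 1308 genes, limma-voom with a spread per group 258 and the exact rank-sum test 334, with 0 members each. DESeq2 called 1449 genes in FR1, 2096 in FR2 and 1876 in FR3, with 1, 1 and 6 members, and 2118 genes for any difference. Limma-voom called 185 genes in FR1, 295 in FR3 and 204 for any difference, with 0 members in the last 2 comparisons. With a spread per group it called 22 in FR1, 358 in FR2, 0 in FR3 and 22 for any difference, with 0 members. With only the libraries of the groups compared, 0, 1 and 0 genes were called in FR1, FR2 and FR3, with 0 members in FR3.

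Some signs turned, all in genes that were not called. Over all inseminated sows, the log2 change by limma-voom, limma-voom with a spread per group and rank-sum means was 1.00, 1.00 and 0.96 for MKI67, 1.28, 1.27 and 1.20 for TOP2A, 0.98, 0.97 and 0.62 for CDK1, 1.50, 1.50 and 1.34 for CCNB1, and 0.63, 0.62 and 0.41 for FOXM1. The 2 limma-voom fits gave MKI67 1.92 and 1.92 in FR1 and 1.71 and 1.71 in FR2, and CCNB1 1.12 and 1.11 in FR3. MKI67 in FR1 was 0.0020 with relative log expression factors, 0.0023 with DESeq2, 0.0028 with the 1 CPM filter and 0.038 with only the libraries compared. The cause was not tested.

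Leaving out 1 library at a time, genes called ran from 988 to 2730 over all inseminated sows, 99 to 1372 in FR1, 309 to 1881 in FR2, 58 to 1869 in FR3, 243 to 1526 for any difference, and 0 to 1 in FR3 against FR2. Members called ran from 0 to 1 in FR1, in FR2 and for any difference, and from 0 to 4 in FR3. The median over members ran from -1.69 to -1.17 in FR3 against FR1 and from -1.69 to -1.06 in FR3 against FR2. Changes over all inseminated sows ran from -1.19 to 0.19 for MKI67, -1.04 to 0.75 for TOP2A, -1.27 to 0.40 for CDK1, -1.14 to 1.16 for CCNB1, -0.53 to 0.0054 for PCNA, -0.93 to 0.23 for FOXM1 and -0.34 to 0.050 for CCNE1, each highest without CONTROL_1. MKI67 ran from -0.43 to 1.05 in FR1, -0.64 to 0.93 in FR2 and -0.63 to 0.29 in FR2 against FR1, and CCNB1 from -1.57 to 0.72 in FR3. CCNE1 ran from -0.43 to 0.051 in FR3 against control, -0.33 to 0.088 against FR2 and -0.13 to 0.22 against FR1, and MYBL2 from -0.72 to 0.075 in FR2 against FR1. Members correlated with MKI67 over all libraries numbered 38 to 39. With 5 sows a group, changes such as those of MKI67 between FR3 and FR1 had standard errors near 1 on the log2 scale, which limits what the adjusted tests could call.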
